A study of Homo sapiens with 8 samples.

Results

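Fused organoids grown from the human embryonic stem cell line H1, an established line, were compared after cocaine and after vehicle by single-cell RNA sequencing. The cells were chosen by their names, which begin with the tag of the culture they came from: 3387 cells in 4 tags carry 3DFusiAcCoc and 3061 cells in 3 tags carry 3DFusiVehic, so 6448 of the 43693 cells in the series and 7 of its 46 tags enter the comparison. The labels list dopamine, cocaine, morphine and untreated as the treatments of the series and do not define the tags, so AcCoc is read here as cocaine, Vehic as vehicle and 3DFusi as organoids fused in 3 dimensions. Which organoids were fused, their age, the dose of cocaine and the time from dosing to harvest are not given in the sources used. All groups share the H1 genotype and 1 preparation: organoids were cut up and dissociated with papain, a protein-digesting enzyme, and their fixed cells were barcoded in several rounds of splitting and pooling. The 3 fused-organoid tags named AcMor, read as morphine (3317 cells), were used as a further reference, and the same drug contrast in 2DCocu, read as a 2-D co-culture, was used to ask whether an effect differed between culture forms. The tags are numbered 1 to 4 (AcCoc), 1, 3 and 4 (Vehic) and 1, 3 and 4 (AcMor), and values below are given in that order.

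Cocaine blocks the reuptake transporters of dopamine, noradrenaline and serotonin, so that these transmitters linger outside the cell. In the striatum, dopamine acting on D1-type receptors raises cyclic AMP, which activates the factor CREB, and acute cocaine is known there for the rapid induction of immediate early genes such as FOS, FOSB, EGR1 and the NR4A nuclear receptors. CREB binds the cyclic AMP response element, whose full form reads TGACGTCA and whose core, the start of the full form, reads TGACG. Fused organoids hold neurons, progenitors and non-neural cells side by side, so that a level measured over all cells reflects both what each cell type expresses and how many cells of each type a tag holds. In such sums, fewer cells of a type and less RNA per cell cannot be told apart.

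Promoter sequence was looked at for the immediate early genes because their members stood higher together in the AcCoc tags (below). Of the 26 genes in the immediate early list, 20 matched the RefSeq promoter table (GRCh38.p14), with 25 windows that run from 250 bases before to 50 bases after the start. TGACG, on either strand, was found in 16 of these 25 windows (15 of the 20 genes), against 24.6% of all 35116 promoter windows in the table. The full element TGACGTCA was in 2 of the 20 genes (DUSP1 and JUND; 1.85% of all windows), the AP-1 element TGANTCA in 1 (FOSL2; 7.71%) and the serum response element in 2 (EGR1 and EGR2; 1.29%). The 150 bases before the start are shown for 3 members described below, chosen as examples that hold the core, with every TGACG, or CGTCA where the match is on the other strand, in capitals. All are plus-strand genes, and each stretch ends before both the RefSeq and the GENCODE v29 start of its gene.
FOS, chr14:75278624-75278773: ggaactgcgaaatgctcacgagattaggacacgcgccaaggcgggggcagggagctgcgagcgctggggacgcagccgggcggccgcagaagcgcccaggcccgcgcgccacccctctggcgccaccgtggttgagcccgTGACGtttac
FOSB, chr19:45467845-45467994: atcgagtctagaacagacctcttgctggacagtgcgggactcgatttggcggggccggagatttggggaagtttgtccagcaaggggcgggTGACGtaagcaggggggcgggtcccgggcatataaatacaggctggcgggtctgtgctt
NR4A3, chr9:99821705-99821854: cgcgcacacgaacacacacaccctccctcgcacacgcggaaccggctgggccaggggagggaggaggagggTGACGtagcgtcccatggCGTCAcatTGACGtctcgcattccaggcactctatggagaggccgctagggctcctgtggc
FOS and FOSB each held 1 core match in the whole window and NR4A3 held 4, of which 3 lie in the stretch shown. Neither of the 2 NR4A1 windows held TGACG. A match describes letters, not a site that is in use.

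Depth differed between tags. Summed expected counts ranged from 4479874 (AcCoc 2, 410 cells) to 35536417 (AcCoc 1, 887 cells) in the AcCoc tags and from 7534664 to 37914698 in the Vehic tags, and the median count per cell was 12530 in AcCoc and 13454 in Vehic cells. In the first principal component, which held 40.8% of the variance over the 10 fused-organoid tags, the tags numbered 1 and 2 stood on one side and those numbered 3 and 4 on the other. The cell types differed along the same lines: the summed level of the 8 mesenchymal markers was 765, 219, 4146 and 2528 CPM (counts scaled to the total of the tag, after TMM normalization) in AcCoc 1 to 4 and 562, 1559 and 1660 CPM in Vehic 1, 3 and 4, and 4 muscle markers summed to 2008 CPM in AcCoc 2 against 35.7 to 293 CPM elsewhere. Of the 6078 distinct cell barcodes, 357 occurred in 2 or more of the 8 sublibraries and 0 were repeated within one. Nothing in the sources says that tags came from separate cultures, so p-values measure only the spread between these tags, which may be technical.

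Over all cells no gene passed the test for a difference between AcCoc and Vehic tags (edgeR quasi-likelihood test, Benjamini-Hochberg adjusted p at most 0.05: 0 of 23676 genes, 0%). At an unadjusted p under 0.05 there were 392 genes (1.66%), of which 121 were higher in AcCoc and 271 (1.14%) lower, and in 581 genes (2.45%) the tags of the groups did not overlap. DESeq2 called 1 gene, PAX2, lower in AcCoc. Deviations of same-numbered tags from their group means correlated at 0.138 to 0.566, but numbers 3 and 4 were not set apart from each other. For example, AcCoc 3 correlated at 0.164 with Vehic 3 and at 0.323 with Vehic 4. A fit with the number as a block was also made as an alternative. It called 0 of 26336 genes by edgeR, with 1125 at an unadjusted p under 0.05, and 18 by DESeq2 (6 higher, 12 lower). AcCoc 2 has no Vehic tag of its number and adds nothing to the drug contrast in that fit. The values below are therefore levels and log2 fold changes ± SE, both from edgeR, and the adjusted p of each gene named over all cells was 1 unless another is given.

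Immediate early genes, which are transcribed within minutes of a stimulus, stood higher in AcCoc as a group. Of the 26 genes listed, 25 were tested (EGR4 was below the count filter), and 24 of the 25 had a log2 fold change above 0, against 52.0% of all genes tested. Their median log2 fold change was 0.51, against 0.01 for all genes. None passed the test; 3 (FOS, NR4A3 and IER2) had an unadjusted p under 0.05 in the direction of higher, where the background was 0.511%, and 1 (FOS) had AcCoc tags all above the Vehic tags, where the background was 0.933%. FOSL1 was the member below 0, at −0.35. With the number as a block, where AcCoc 2 adds nothing to the drug contrast, 12 of the 25 members were higher at an unadjusted p under 0.05. The background was 2.02% of genes, and 0 members were lower at that p. Within the numbers 1, 3 and 4, 14 members were higher in AcCoc in all 3 comparisons, against 9.28% of genes. The median mitochondrial share of counts per cell was 2.23, 2.54, 5.05 and 4.33% in AcCoc 1 to 4 and 3.24, 3.00 and 2.45% in Vehic. It was highest in AcCoc 3 and 4, and its part in these values was not tested. Nor was the part of cutting and papain dissociation, which all groups shared.

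Of the AP-1 subunits, FOS (chr14:75278774-75282230, plus strand) was measured at 132, 128, 262 and 162 CPM in AcCoc 1 to 4 and at 99.1, 121 and 106 CPM in Vehic 1, 3 and 4. Every AcCoc tag lay above every Vehic tag, with AcCoc 3 standing highest. The log2 fold change was 0.65 ± 0.24 (SE), and it was 0.37 without AcCoc 3. FOSB (chr19:45467995-45475179, plus strand), whose stable splice form is known to build up in striatal neurons under repeated cocaine, was at 17.2, 21.3, 90.2 and 96.2 CPM in AcCoc and 10.6, 27.8 and 58.4 CPM in Vehic. FOSB differed more between the numbers than between the treatments, and each AcCoc tag with a Vehic partner exceeded it. Its log2 fold change was 0.82 ± 0.73, and it was 1.07 ± 0.23 with the number as a block. JUN, the partner of FOS proteins in AP-1, was at 108, 39.6, 208 and 157 CPM in AcCoc and 92.1, 77.0 and 103 CPM in Vehic: AcCoc 2 was the lowest of the 7 tags and the other AcCoc tags were the highest. With the number as a block the log2 fold change of JUN was 0.76 ± 0.20.

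**Figure D1:**
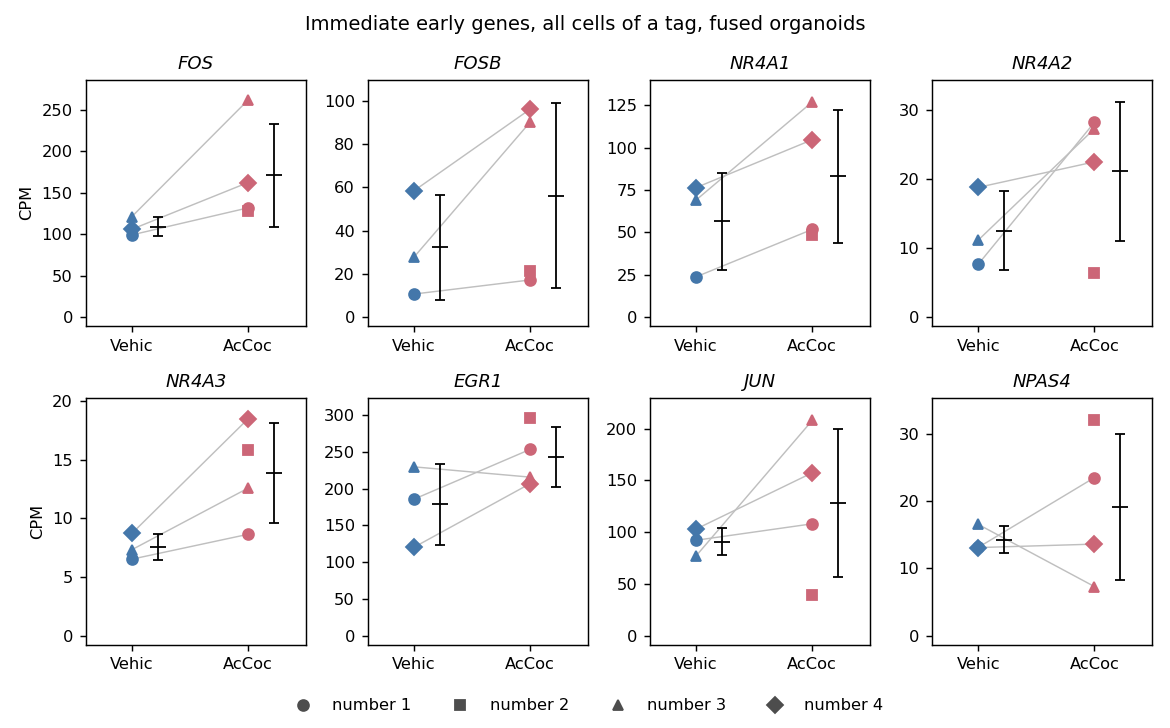
Level (CPM, vertical axis) of FOS, FOSB, NR4A1, NR4A2, NR4A3, EGR1, JUN and NPAS4 in each fused-organoid tag, Vehic in blue on the left and AcCoc in red on the right; the marker shape gives the tag number, grey lines join tags of the same number, and black bars give the mean ± SD (n = 3 Vehic, n = 4 AcCoc). FOS separates the 4 AcCoc from the 3 Vehic tags, while FOSB, NR4A1 and NR4A2 overlap between groups and are higher in AcCoc along each grey line.

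The NR4A genes encode orphan nuclear receptors that act as transcription factors and are induced by cyclic AMP and calcium; NR4A2 is also needed for midbrain dopaminergic neurons. NR4A3 (chr9:99821855-99866891, plus strand) was at 8.65, 15.8, 12.6 and 18.5 CPM in AcCoc and 6.53, 7.34 and 8.73 CPM in Vehic. The groups overlapped only where AcCoc 1 and Vehic 4 lay at nearly the same level (log2 fold change 0.88 ± 0.29). NR4A1 (chr12:52022832-52059507, plus strand) was at 51.8, 48.6, 127 and 105 CPM in AcCoc and 23.8, 69.1 and 76.5 CPM in Vehic, with 1 and 2 lower than 3 and 4 among the AcCoc tags (0.56 ± 0.47; block 0.82 ± 0.16). NR4A2 (chr2:156324432-156342348, minus strand) was at 28.2, 6.41, 27.3 and 22.5 CPM in AcCoc and 7.65, 11.1 and 18.8 CPM in Vehic. AcCoc 2 was again the lowest tag and the other AcCoc tags the highest (0.79 ± 0.45; block 1.17 ± 0.27).

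Among the remaining activity-induced factors, EGR1, a zinc finger factor downstream of MAP kinase, was at 253, 296, 216 and 207 CPM in AcCoc and 186, 230 and 120 CPM in Vehic. Vehic 3 overlapped the AcCoc range (log2 fold change 0.44 ± 0.23). EGR2 was at 9.55, 5.04, 5.74 and 4.63 CPM against 4.23, 4.64 and 3.03 CPM, with AcCoc 4 and Vehic 3 at nearly the same level. IER2 was at 17.2, 14.0, 26.2 and 23.7 CPM in AcCoc and 14.3, 13.4 and 11.9 CPM in Vehic (0.62 ± 0.28). NPAS4, a factor that in neurons responds to calcium entry, showed no such order: it was at 23.5, 32.1, 7.29 and 13.6 CPM in AcCoc and 13.1, 16.5 and 13.1 CPM in Vehic, with 2 AcCoc tags above and 1 below all Vehic tags. ARC, whose protein acts at the synapse, was near the lower end of detection, at 1.71 to 3.78 CPM in AcCoc and 0.604 to 2.70 CPM in Vehic. Against the AcMor tags, a comparison that uses none of the Vehic tags but shares the AcCoc tags with the one above, the list's median log2 difference was 0.44; 0 of 23676 genes passed that test (0%) and 336 had an unadjusted p under 0.05 (1.42%). DESeq2 called 1 gene in it, higher in AcCoc.

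The immediate early list did not rest on one tag, but its size did vary. Leaving out each tag in turn gave a median between 0.35 (without Vehic 1) and 0.69 (without Vehic 3), with 19 members above 0 at the fewest (without AcCoc 3). When every cell was scaled to the same total before summing, 20 members were above 0 and the median was 0.34. The mesenchymal-like share of cells was 50.2% in AcCoc 3, and FOS was measured at 284 to 405 CPM in the mesenchymal-like cells of the AcCoc tags against 41.9 to 109 CPM in their GABAergic neuron-like cells, so the list was also read within cell classes.

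Classes were rebuilt by clustering all cells and naming clusters from marker lists, so they are "-like" classes. GABAergic neuron-like cells numbered 397 in AcCoc and 405 in Vehic tags, and over pooled tags cluster 2 held 95.2% and 93.6% of them. Single tags differed: cluster 2 was 2.28% of all cells in AcCoc 3, against 2.95% for the class. In Vehic 4 it was 6.44%, against 8.14% for the class. The part of this in the values was not tested. Of 12949 genes tested in these cells, none passed (0%) and 361 had an unadjusted p under 0.05 (2.79%). Of the 17 immediate early genes tested there, 15 were above 0 with a median log2 fold change of 0.62, and 6 had an unadjusted p under 0.05. NR4A1 was the gene of lowest p among all those higher in AcCoc, at 68.2, 100.2, 76.5 and 79.0 CPM against 31.4, 29.6 and 48.3 CPM. No AcCoc tag reached down to the Vehic range (1.23 ± 0.25, adjusted p = 0.999 by edgeR), which a choice by lowest p largely fixes.

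In the same GABAergic cells NR4A3 was at 21.6, 15.5, 54.3 and 42.0 CPM in AcCoc and 9.70, 8.39 and 6.90 CPM in Vehic (1.83 ± 0.48). NR4A2 was at 17.2, 8.20, 9.87 and 7.65 CPM against 3.42, 1.48 and 6.90 CPM (1.88 ± 0.55), and FOSB at 8.84, 9.11, 22.2 and 24.2 CPM against 4.00, 7.40 and 6.90 CPM. In all 3 genes the tags did not overlap, where 2.15% of the genes tested in this class were higher without overlap. AcCoc 3 and Vehic 4 held 44 and 43 of these cells, so single genes are measured on few reads there. For NR4A2, AcCoc 4 and Vehic 4 nearly met. FOS was at 54.0, 41.9, 109 and 67.5 CPM against 46.2, 31.6 and 20.7 CPM, with AcCoc 2 inside the Vehic range (0.90 ± 0.32).

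Excitatory neuron-like cells (300 in AcCoc, 382 in Vehic) gave 9 of 11 members above 0 with a median of 0.50, on fewer reads. Over pooled tags cluster 1 held 95.0% of them in AcCoc and 99.5% in Vehic. In AcCoc 2, however, cluster 1 was 3.66% of all cells, against 6.83% for the class. The part of this in the values was not tested. NR4A2 was at 75.0, 22.3, 19.4 and 19.4 CPM in AcCoc and 12.4, 12.7 and 3.10 CPM in Vehic there, without overlap (1.92 ± 0.65), where 2.11% of the genes tested in this class were higher without overlap, and AcCoc 1 stood highest. Mesenchymal-like cells, tested in 3 against 3 tags because AcCoc 2 held 18 of them, had 21 of 22 members above 0 with a median of 0.47. The makeup of this class differed: clusters 9, 21 and 38 held 50.2, 26.5 and 16.8% of it in AcCoc and 40.6, 43.5 and 8.70% in Vehic, and the part of this in the values was not tested. Cluster 38 was led by ACAN, EPYC, COL2A1 and COL9A1, genes of cartilage matrix, and joined the class through 4 of its 8 markers (LUM, DCN, PDGFRB and TWIST1). JUN was at 230, 339 and 391 CPM in AcCoc 1, 3 and 4 and 159, 193 and 210 CPM in Vehic, without overlap (0.77 ± 0.23), where 2.96% of the 15875 genes tested were higher without overlap. FOS was at 284, 405 and 350 CPM against 167, 298 and 216 CPM there, and AcCoc 1 lay below Vehic 3.

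Progenitor-like and cycling cells combined gave another picture: 7 of 17 members were above 0 and the median was −0.12. With the number as a block it was 0.01. Here AcCoc 3 and 4 held 32 and 22 cells, so single genes are measured on few reads. Of the cycling cells cluster 14 held 49.7% in AcCoc and 30.9% in Vehic. Cluster 22, which shares the leading genes DTHD1 and SPON1 with cluster 12, held 4.9% in AcCoc and 17.4% in Vehic. The part of this makeup in the values was not tested. No test of the difference between classes was made.

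**Figure D2:**
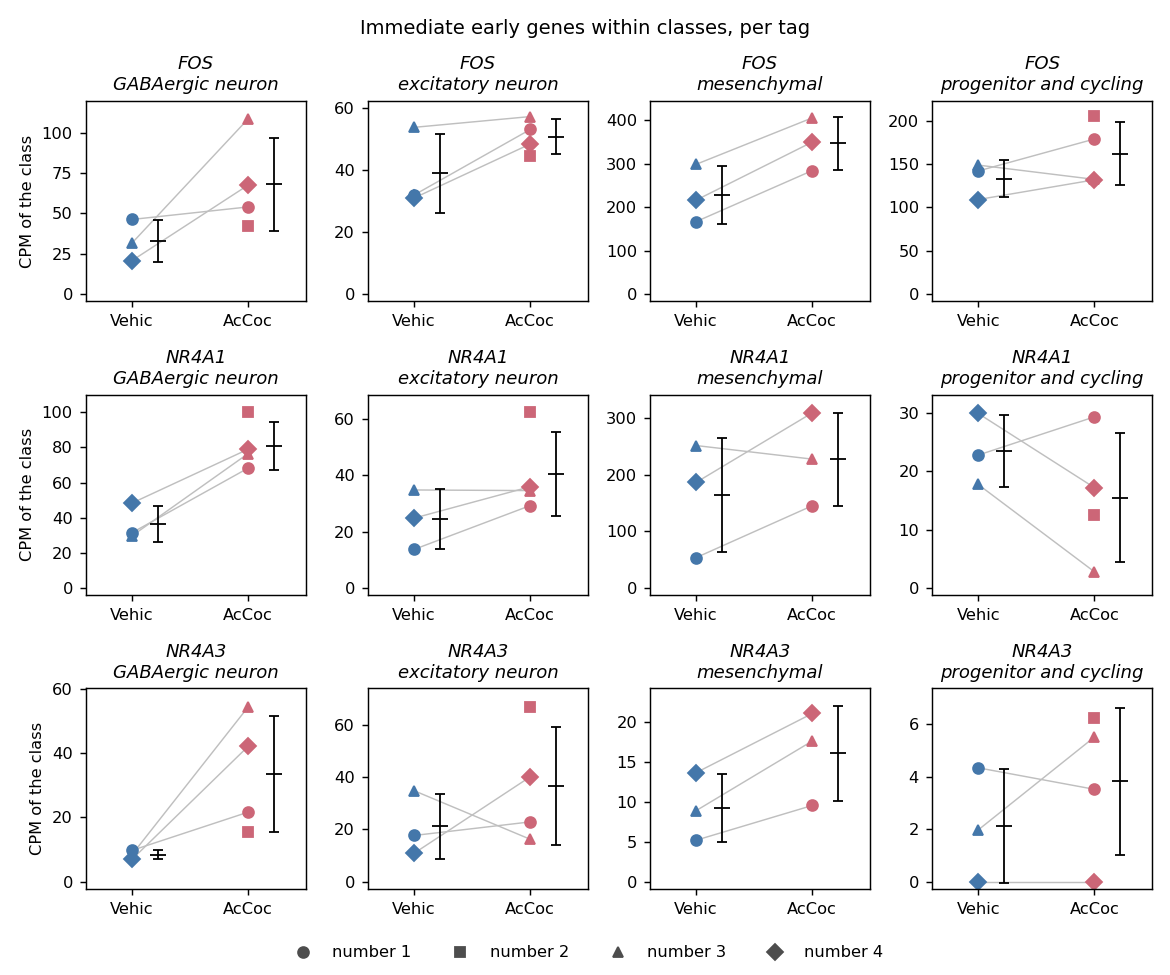
Level (CPM, vertical axis) of FOS, NR4A1 and NR4A3 in GABAergic neuron-like, excitatory neuron-like, mesenchymal-like and progenitor-like with cycling cells, 1 point per tag, Vehic in blue and AcCoc in red; the mesenchymal panels lack AcCoc 2, and black bars give the mean ± SD. In the GABAergic panels NR4A1 and NR4A3 show AcCoc tags above all Vehic tags, and in the progenitor panels the groups mix.

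The genes through which cocaine acts directly were scarce in these organoids. Of 17 transporter, synthesis, breakdown and receptor genes, 16 were tested (DRD5 was below the filter), 6 were above 0, the median log2 fold change was −0.24, and none had an unadjusted p under 0.05. SLC6A3, the dopamine transporter, was at 0.194, 0, 0.389 and 1.7005 CPM in AcCoc and 0.460, 0.761 and 1.94 CPM in Vehic. SLC6A2, the noradrenaline transporter, was at 0.452, 0.229, 0.827 and 1.32 CPM against 0.172, 0.831 and 2.42 CPM, and SLC6A4, the serotonin transporter, at 2.74, 1.37, 4.86 and 8.31 CPM against 2.93, 5.74 and 12.2 CPM. All 3 followed the tag number, low in 1 and 2 and high in 4, with overlapping groups.

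DRD1, the main D1-type receptor, was at 0.387, 0, 0.778 and 0.756 CPM in AcCoc and 0.345, 0.623 and 0.485 CPM in Vehic, and DRD2 was at 2.84, 6.87, 1.702 and 1.61 CPM against 1.64, 3.18 and 4.61 CPM. Neither gene separated the groups.

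Genes for proteins that pass the dopamine signal on inside the cell lay near all genes: 14 of 22 dopamine signalling intermediates were above 0, with a median log2 fold change of 0.03. PPP1R1B, which encodes DARPP-32, was at 2.00, 1.37, 1.90 and 2.55 CPM in AcCoc and 2.62, 2.63 and 0.727 CPM in Vehic. CARTPT, the peptide precursor named for its response to cocaine and amphetamine, summed to 4 counts in AcCoc and 1 in Vehic and was not tested. Among 18 later activity genes, 12 were above 0 with a median of 0.11. HOMER1, a scaffold of glutamate synapses, was at 185, 165, 126 and 142 CPM against 103, 91.1 and 145 CPM (0.45 ± 0.20), and NPTX2, a secreted synapse organiser, at 5.07, 6.87, 4.47 and 10.8 CPM against 10.98, 13.0 and 12.5 CPM (−0.85 ± 0.36). The 2 thus pointed in opposite directions. NPTX2 was the 1 of the 18 genes lower without overlap, against 1.52% of all genes, and 0 were higher without overlap.

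PAX2 had the lowest p of all genes. PAX2 (chr10:100735603-100829941, plus strand) encodes a paired-box transcription factor of the midbrain-hindbrain boundary, which in the spinal cord and hindbrain also marks inhibitory interneurons. It was at 2.74, 1.15, 8.51 and 3.21 CPM in AcCoc and 65.0, 27.2 and 28.97 CPM in Vehic. The highest AcCoc tag was well under the lowest Vehic tag. The log2 fold change was −3.30 ± 0.60, with an adjusted p of 1 by edgeR and of 0.000472 by DESeq2. The AcMor tags were at 6.89, 25.3 and 19.4 CPM, all under the Vehic tags, with AcMor 1 inside the AcCoc range, and AcCoc was lower than AcMor by −2.07 ± 0.59 on the log2 scale (edgeR adjusted p = 1). Leaving out a tag moved the difference from Vehic between −4.00 and −2.77.

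PAX2 reads came from several clusters of cells. Cluster 6, a neuron-like cluster led by RIT2, GLRA3 and NKX2-2, held 26.3% of them, and its cells made up 0.451, 1.71, 1.88 and 6.20% of the AcCoc tags against 10.2, 10.3 and 8.52% of the Vehic tags. Within cluster 6, PAX2 stood at 29.8 CPM in AcCoc and 166 CPM in Vehic cells. Of the other clusters, PAX2 stood at 1.73 against 54.9 CPM in cluster 7 (mostly called doublets, below), 13.5 against 56.5 CPM in cluster 12 and 3.76 against 115 CPM in cluster 9, and the other way round in cluster 18, at 10.6 against 1.92 CPM. These are sums over pooled tags, have no test and can rest on single tags. In the mesenchymal-like class, which holds cluster 9, PAX2 was at 8.23, 2.24 and 3.69 CPM in AcCoc 1, 3 and 4 and 143, 4.44 and 14.9 CPM in Vehic, with overlapping groups and Vehic 1 far the highest. In the GABAergic neuron-like cells it was at 0, 0, 32.1 and 2.55 CPM in AcCoc and 17.1, 12.8 and 13.8 CPM in Vehic, and AcCoc 3 exceeded every Vehic tag. In the neuron-like classes together the groups did not overlap, at 0.3995, 0, 23.9 and 1.07 CPM against 73.6, 33.6 and 83.05 CPM. There 2.04% of 16187 genes were lower without overlap, and the choice of PAX2 by lowest p largely fixes this. Of the neuron-like cells without a transmitter class, cluster 6 held 33.0% in AcCoc and 87.1% in Vehic. Its part in the value was not tested.

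The drug contrast for PAX2, over all cells, differed between fused organoids and the 2-D co-culture. Cluster 15, led by SLC6A5 and PAX2, held 1098 cells of the series and 0 of the fused-organoid cells. The part of cell types in this contrast was not tested. In a joint fit of both culture forms, mean levels were 3.77 CPM in AcCoc and 39.0 CPM in Vehic fused organoids, and 60.4 CPM in AcCoc and 38.3 CPM in Vehic co-cultures. The difference of the log2 effects was −3.92 ± 0.58 (adjusted p = 0.0294, edgeR), and PAX2 was the 1 gene of 23501 that passed (0.00426%; 1387 genes, 5.9%, had an unadjusted p under 0.05). The adjusted p was 0.0801 without AcCoc 1, 0.0773 without Vehic 1 and 0.153 with no filter on low counts, so the call depends on those choices; DESeq2 gave 2.24e-07.

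Of the 16 genes tested that pattern the midbrain and hindbrain, PAX2 included, 3 were lower in AcCoc without overlap, against 1.52% of all genes. Beside PAX2 these were PAX8 and HOXA2. PAX8, a close relative of PAX2 that acts with it, was at 0.516, 0, 0.778 and 0.0945 CPM in AcCoc and 1.98, 2.49 and 2.91 CPM in Vehic (−2.46 ± 0.70). HOXA2, a hindbrain segment gene, was at 0.0968, 0.229, 0.583 and 0.189 CPM against 0.949, 1.66 and 1.45 CPM (−2.21 ± 0.62). Both were low in absolute terms and low in every AcCoc tag. In the list as a whole 5 members were above 0 and the median was −0.38, and leaving out tags or changing the scaling kept the median between −0.84 and −0.17.

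**Figure D3:**
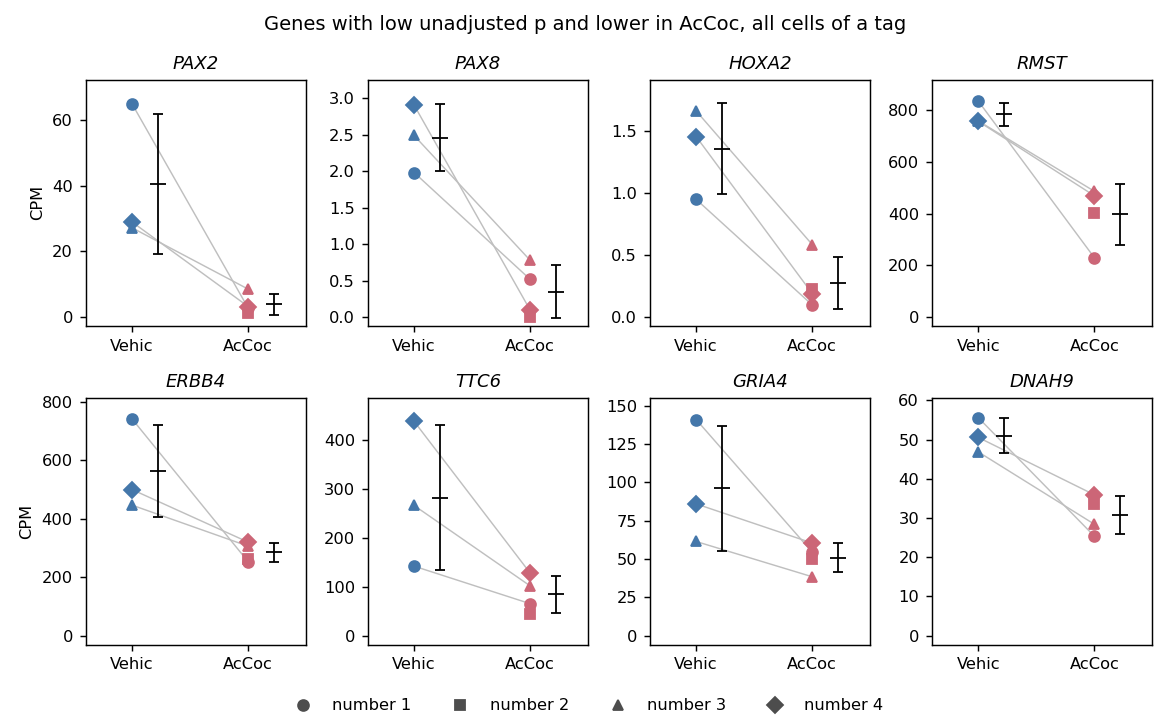
Level (CPM, vertical axis) of PAX2, PAX8, HOXA2, RMST, ERBB4, TTC6, GRIA4 and DNAH9 per tag, Vehic in blue on the left and AcCoc in red on the right, with the tag number as marker shape, grey lines between tags of the same number and black mean ± SD (n = 3 and n = 4). In each panel all AcCoc tags lie below all Vehic tags. The genes were chosen for a low unadjusted p and a lower level in AcCoc, which largely fixes this. Of all genes, 1.52% were lower without overlap, and none passed over all cells by edgeR.

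RMST, a long non-coding RNA tied to neurogenesis and SOX2, was at 229, 403, 486 and 469 CPM in AcCoc and 835, 758 and 757 CPM in Vehic (−0.98 ± 0.25). The Vehic tags lay close together and AcCoc 1 was lowest. ERBB4 (chr2:211375717-212538841, minus strand), the neuregulin receptor of interneurons, was at 253, 261, 306 and 320 CPM against 742, 446 and 500 CPM (−0.98 ± 0.26). ERBB4 was even across the AcCoc tags and spread in Vehic. In the neuron-like classes together it was at 284, 217, 296 and 367 CPM against 759, 653 and 1019 CPM (−1.47 ± 0.36), again without overlap, where 2.04% of 16187 genes were lower without overlap. Beside this, cluster 6, where ERBB4 stood at 768 CPM in AcCoc and 1597 CPM in Vehic, held 33.0% of the neuron-like cells without a transmitter class in AcCoc and 87.1% in Vehic, and its part in the value was not tested. In the GABAergic neuron-like cells alone the groups overlapped, at 588, 216, 1195 and 649 CPM against 734, 592 and 736 CPM.

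Counts of some of the lower genes came largely from ciliated or ependymal-like cells. TTC6 was at 65.1, 43.1, 101 and 128 CPM in AcCoc and 142, 266 and 438 CPM in Vehic (−1.74 ± 0.46). Cluster 12, the ciliated or ependymal-like class, held 75.4% of its counts, and within that cluster TTC6 stood at 1475 CPM in AcCoc and 1696 CPM in Vehic. EFCC1 was at 4.78, 8.93, 10.5 and 15.8 CPM against 25.0, 20.5 and 21.9 CPM (−1.18 ± 0.32), and cluster 12 held 50.4% of its counts, at 113 and 116 CPM. EFCC1 was lower in cluster 7 (3.80 against 20.7 CPM) and cluster 21 (4.62 against 18.4 CPM). For RMST cluster 12 held 24.5%, at 1917 and 2117 CPM, and the levels in other clusters went both ways. They were lower in AcCoc in several, with 1193 and 2076 CPM in cluster 11, 1040 and 1552 CPM in cluster 6, 200.4 and 743 CPM in cluster 7 and 296 and 471 CPM in cluster 2. They were nearly equal in cluster 5 (80.0 and 78.5 CPM) and higher in AcCoc in clusters 25 (183 and 137 CPM) and 38 (201 and 65.6 CPM). These sums over pooled tags have no test.

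The motile cilium list, genes for the beating axoneme, went the same way: 0 of 16 members were above 0, the median was −0.39, and 5 were lower without overlap, against 1.52% of all genes. DNAH9, a dynein arm heavy chain, was at 25.3, 33.4, 28.4 and 35.9 CPM in AcCoc and 55.6, 46.9 and 50.5 CPM in Vehic (−0.73 ± 0.21). CFAP299 was at 12.9, 16.7, 23.1 and 31.1 CPM against 34.8, 41.1 and 57.6 CPM (−1.08 ± 0.41); the other 3 were CCDC39, TEKT1 and RSPH1. FOXJ1, the factor that switches on the motile cilium programme, was at 0.839 to 7.46 CPM in AcCoc and 2.67 to 4.84 CPM in Vehic and did not separate. Beside this, the 8 ciliated markers, which share members with the list, summed to 104, 143, 171 and 186 CPM in AcCoc and 189, 214 and 235 CPM in Vehic, with none of the 8 at 0 in any tag. Ciliated or ependymal-like cells were 1.58, 0.976, 4.82 and 9.72% of the AcCoc tags and 6.30, 12.01 and 13.3% of the Vehic tags, a difference of −6.25 percentage points (exact permutation test, two-sided, p = 0.114; adjusted p = 0.886 over 14 categories). The part of this share in the lower genes was not tested.

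Receptors for glutamate leaned lower in AcCoc: 5 of 17 ionotropic subunits were above 0 and the median log2 fold change was −0.15. GRIA4, an AMPA receptor subunit, was at 54.4, 50.2, 38.4 and 60.4 CPM in AcCoc and 141, 61.4 and 85.9 CPM in Vehic (−0.92 ± 0.33). AcCoc 4 and Vehic 3 nearly met. GRIN2A, an NMDA receptor subunit, was at 41.1, 30.2, 69.9 and 92.0 CPM against 93.7, 102 and 179 CPM (−1.09 ± 0.40), and AcCoc 4 and Vehic 1 nearly met. The median was 0.08 without AcCoc 3 and 0.02 without Vehic 1. GRIA4 is among the leading genes of cluster 6, which made up 0.451, 1.71, 1.88 and 6.20% of the AcCoc tags and 10.2, 10.3 and 8.52% of the Vehic tags. When fused-organoid cells were clustered alone, GRIN2A was among the leading genes of a ciliated or ependymal-like cluster. The ciliated or ependymal-like shares are given above. The part of these shares in the values was not tested. GABA and glycine receptor subunits (10 of 17 above 0, median 0.01) and synaptic vesicle genes (6 of 20 above 0, median −0.06) lay near the median of all genes.

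Extracellular matrix genes were above 0 in 25 of 26 members, with a median of 0.39, but none had an unadjusted p under 0.05 and the groups overlapped throughout. COL1A1, the main fibrillar collagen chain, was at 174, 54.1, 1552 and 1174 CPM in AcCoc and 123, 622 and 663 CPM in Vehic. AcCoc 3 and 4 were high and AcCoc 2 was the lowest of all tags. With the number as a block 15 members had an unadjusted p under 0.05, all higher, against 2.02% of genes. Without AcCoc 3, 8 members were above 0 and the median was −0.06. All 8 mesenchymal markers were tested and none was at 0 in any tag; their sums are given above, and mesenchymal-like cells were 6.65, 4.39, 50.2 and 21.8% of the AcCoc tags and 5.63, 19.9 and 27.1% of the Vehic tags. Inside the mesenchymal-like class 24 of 26 members were above 0 with a median of 0.39. The part of the mesenchymal share in the all-cell values was not tested.

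**Figure D4:**
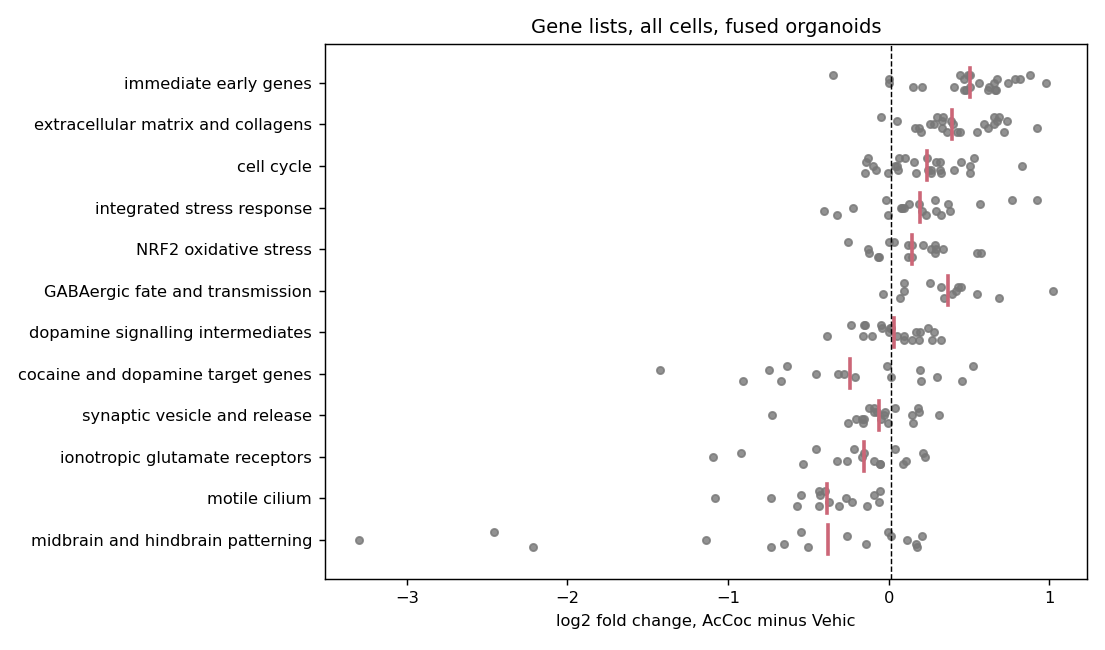
Log2 fold change, AcCoc minus Vehic over all cells (horizontal axis), of each tested member (grey points) of 12 gene lists; the red bar is the list's median and the dashed line the median of all genes, 0.01. Immediate early genes (0.51) and extracellular matrix genes (0.39) lie to the right, motile cilium (−0.39) and midbrain and hindbrain patterning genes (−0.38) to the left.

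Lists of cell stress and metabolism lay closer to all genes. In the integrated stress response 15 of 20 members were above 0 with a median of 0.20, and 0 had an unadjusted p under 0.05. With the number as a block 6 were higher at that p, against 2.02% of all genes, among them SLC7A11, the cystine transporter (123, 46.3, 142 and 96.4 CPM in AcCoc, 101, 89.2 and 60.7 CPM in Vehic), and VEGFA (40.6, 38.5, 80.5 and 56.4 CPM against 18.6, 44.4 and 46.9 CPM). AcCoc 2 was the lowest tag for SLC7A11, and the groups overlapped for both genes. Medians were 0.15 for NRF2 targets, 0.23 for endoplasmic reticulum chaperones, 0.07 for heat shock chaperones, 0.03 for hypoxia and glycolysis, −0.05 for cholesterol synthesis, −0.06 for p53 targets and −0.09 for mitochondrially encoded genes. No member of these 7 lists had an unadjusted p under 0.05 without the block. With it, 1 NRF2 target and 2 members each of the endoplasmic reticulum, heat shock and hypoxia lists were higher at that p. GABAergic fate genes (13 of 14 above 0, median 0.37) changed sign with the number as a block (median −0.18), and cell cycle genes (21 of 27 above 0, median 0.24) came to 0.01.

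Of the 10 genes of lowest p on the higher side, 7 separated the groups and 3 (NR4A3, CACNG5 and LINC02328) overlapped. The background was 0.933% of all genes, and choosing genes by p largely fixes this count. SNTG2, a syntrophin, which links membrane proteins to the cytoskeleton, was at 53.7, 49.0, 61.0 and 38.5 CPM in AcCoc and 33.5, 26.6 and 26.7 CPM in Vehic (0.81 ± 0.20). MAP3K14, the NF-kappa-B-inducing kinase, was at 44.7, 42.6, 48.7 and 47.8 CPM against 33.9, 29.6 and 29.2 CPM (0.57 ± 0.17), and DNAJB11, a co-chaperone of the endoplasmic reticulum, at 21.7, 23.8, 24.2 and 22.1 CPM against 16.2, 16.9 and 15.8 CPM (0.50 ± 0.15). Over all cells none of the 3 overlapped between groups. In MAP3K14 and DNAJB11 the tags of each group lay close together, while SNTG2 spread among the AcCoc tags. Within the classes tested SNTG2 overlapped, at log2 fold changes of −0.04 (GABAergic), −0.03 (excitatory), 0.17 (all neuron-like), 0.06 (mesenchymal) and 1.05 (progenitor-like, cycling). Clusters 7 and 11 held 25.1% and 21.1% of its counts over pooled tags. Cluster 11 (choroid plexus-like) was 1.69, 2.20, 11.9 and 9.21% of the AcCoc tags and 3.86, 2.78 and 3.79% of the Vehic tags. The part of this in the SNTG2 value was not tested. LMO2, a LIM-domain transcription cofactor, was at 7.46, 6.19, 7.24 and 6.05 CPM against 4.66, 2.77 and 3.15 CPM (0.92 ± 0.25). For LMO2 and DNAJB11 the AcMor tags were at AcCoc levels, 7.57, 7.90 and 7.40 CPM and 22.2, 21.0 and 22.6 CPM. Among the 10 genes, the log2 difference of AcCoc from AcMor was −0.17 for LMO2, 0.04 for MAP3K14 and 0.06 for DNAJB11. It was 0.10 for PIP4K2A and 0.17 for both STX16 and LINC02328. The others stood further above AcMor: 0.47 for SNTG2, 0.54 for ENSG00000267053, 0.59 for NR4A3 and 1.01 for CACNG5. The intergenic lincRNA ENSG00000267053 (chr19:36304580-36312668, plus strand) was at 23.6, 30.7, 32.6 and 32.6 CPM against 18.1, 18.2 and 16.7 CPM (0.76 ± 0.18). CACNG5, a calcium channel gamma-family gene, spread more widely, at 6.45, 13.3, 16.5 and 12.3 CPM against 4.94, 4.22 and 6.67 CPM (1.21 ± 0.35), and AcCoc 1 lay inside the Vehic range. When fused-organoid cells were clustered alone, CACNG5 was a leading gene of a cluster led by RELN. Cluster 18 of all cells, also led by RELN, made up 0.23, 3.66, 7.37 and 4.52% of the AcCoc tags and 1.04, 1.56 and 2.65% of the Vehic tags. The part of this share in the value was not tested. Whether counting used strand is not stated, so the value of any gene that overlaps another on the other strand may hold reads of both. Many genes described here overlap one in GENCODE v29, for example FOSB (ERCC1), NR4A1, TTC6 (FOXA1), EFCC1 (KIAA1257), PAX8 (PAX8-AS1), RMST, ERBB4, MAP3K14 (MAP3K14-AS1), LMO2, PCSK5, TENM2, HOXD3 and ZFHX4-AS1 (ZFHX4).

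Within the GABAergic neuron-like cells the genes of lowest p on the higher side were NR4A1, SV2C, PTPRN, TMEM196, NYAP2 and LGI2. Here and in the classes below, choosing genes by p largely fixes whether the tags overlap. SV2C, a vesicle glycoprotein of basal ganglia neurons, was at 54.0, 27.3, 51.8 and 79.0 CPM in AcCoc and 15.4, 20.7 and 9.20 CPM in Vehic (1.67 ± 0.35). PTPRN, a protein of dense-core vesicles, was at 30.4, 28.2, 49.4 and 43.3 CPM against 10.3, 14.3 and 16.1 CPM (1.48 ± 0.31). AcCoc 2 was the lowest AcCoc tag for both and still lay above all Vehic tags. On the lower side POU3F4, a forebrain POU factor, was at 11.8, 7.29, 12.3 and 15.3 CPM against 25.1, 38.5 and 20.7 CPM (−1.35 ± 0.33).

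In the excitatory neuron-like cells none of 10582 genes passed without the block (0%; 261, 2.47%, had an unadjusted p under 0.05) and 1 gene (0.00945%), PCSK5, passed with it (edgeR adjusted p = 0.00226). PCSK5 (chr9:75890644-76362339, plus strand), a proprotein convertase that trims secreted precursors, was at 402, 245, 275 and 257 CPM in AcCoc and 162, 91.8 and 57.3 CPM in Vehic. Each AcCoc tag lay above all Vehic tags (1.46 ± 0.36; adjusted p = 1 without the block). MYO5B, a motor of recycling endosomes, was at 111, 210, 220 and 134 CPM against 50.2, 44.3 and 69.7 CPM (1.58 ± 0.34). On the lower side, the potassium channel KCNH1 was at 26.9, 26.8, 28.1 and 34.6 CPM against 54.7, 82.3 and 96.0 CPM (−1.37 ± 0.35), and ZNF385B at 6.39, 8.92, 2.16 and 5.53 CPM against 14.7, 28.5 and 32.5 CPM (−2.10 ± 0.52). Both did so without overlap, where 1.8% of the genes in this class were lower without overlap, but choosing genes by p largely fixes this. Vehic 3 held 24 of these cells and AcCoc 2 held 28, part of the latter from outside cluster 1 (above).

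With all neuron-like classes combined (16187 genes, 0 passing without the block, 478 or 2.95% at an unadjusted p under 0.05), 3 genes (0.0185%) passed with the block by edgeR, all higher in AcCoc. NR4A2 was at 51.5, 9.25, 11.5 and 11.4 CPM against 8.24, 2.36 and 2.46 CPM (2.16; adjusted p = 0.0156 with the block). The non-coding LINC00326 was at 11.6, 1.98, 4.35 and 18.1 CPM against 0.769, 0.709 and 1.97 CPM, and ENSG00000287120 at 17.6, 8.59, 5.59 and 2.84 CPM against 2.20, 0.236 and 0.491 CPM (adjusted p = 0.0257 and 0.0372 with the block). All 3 were low in Vehic and did not overlap, LINC00326 only narrowly, where 1.77% of the genes tested in these cells were higher without overlap. Choosing genes by their p with the block largely fixes this. TENM2 (chr5:167284799-168264157, plus strand), a teneurin, an adhesion protein of synapses, had the lowest p without the block: it was at 246, 305, 309 and 358 CPM in AcCoc and 946, 852 and 613 CPM in Vehic (−1.40 ± 0.19, adjusted p = 0.122). ZFHX4-AS1 was at 9.39, 30.4, 14.9 and 16.0 CPM against 68.3, 41.1 and 78.1 CPM (−1.89 ± 0.34). The makeup of these neurons differed between the groups: of the neuron-like cells without a transmitter class, cluster 18 held 67.0% in AcCoc and cluster 6 held 87.1% in Vehic. The part of that makeup in these values was not tested. LINC00326 is also among the leading genes of cluster 13, which has no class, and ENSG00000287120 among those of cluster 17. Cluster 17 held 4.67% of the excitatory neuron-like cells in AcCoc and 0.262% in Vehic, and its part was not tested either.

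In progenitor-like and cycling cells together (14462 genes, 0 passing, 450 or 3.11% at an unadjusted p under 0.05), GPCPD1, an enzyme of glycerophosphocholine breakdown, was at 183, 230, 143 and 152 CPM in AcCoc and 97.5, 73.0 and 59.9 CPM in Vehic (1.18 ± 0.24). BRINP1 was at 3.99, 3.13, 2.76 and 2.87 CPM against 11.6, 29.6 and 14.97 CPM (−2.34 ± 0.44). Each separated the groups, where 2.21% of genes were higher and 2.24% lower without overlap, but choosing genes by p largely fixes this. Among the other lower genes of lowest p, PAX7, a dorsal midbrain and neural tube factor, was listed at 0 in AcCoc 1, 2 and 3 and at 2.87 CPM in AcCoc 4, against 7.42, 8.87 and 6.42 CPM in Vehic, and HOXB-AS3, from the HOXB cluster, was at 0 in all AcCoc tags against 6.88, 42.4 and 2.14 CPM, with Vehic 3 far above the other Vehic tags. AcCoc 3 and 4 held 32 and 22 of these cells. The makeup of the cycling cells differed between the groups (above), and its part in these values was not tested.

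In mesenchymal-like cells (0 of 15875 genes passing; 284, 1.79%, at an unadjusted p under 0.05), the higher genes of lowest p included KLF6, an immediate early zinc finger factor, at 77.1, 106 and 108 CPM in AcCoc 1, 3 and 4 and 52.1, 62.1 and 45.6 CPM in Vehic (0.86 ± 0.21). CCN2, a matricellular growth factor, was at 39.0, 90.0 and 32.1 CPM against 7.25, 9.22 and 22.1 CPM (2.10 ± 0.59). TXNRD1, a thioredoxin reductase, was at 155, 103 and 105 CPM against 72.5, 78.5 and 71.2 CPM (0.70 ± 0.20). The tags did not overlap in these 3 genes. HOXD3, a positional gene of the body axis, was at 3.46, 4.96 and 4.43 CPM against 41.7, 15.4 and 11.9 CPM (−2.40 ± 0.48), also without overlap, where 2.59% of genes were lower without overlap. For all of these genes, the choice by p largely fixes the separation.

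Cell composition varied widely between tags of 1 group. None of the 14 classes and clusters compared passed (two-sided exact permutation test over 35 arrangements, adjusted p = 0.886 for each). The smallest exact p the design allows is 0.0286, so that 1 category alone could not pass after adjustment. GABAergic neuron-like cells were 16.9, 32.0, 2.95 and 12.1% of the AcCoc tags and 10.9, 20.5 and 8.14% of the Vehic tags. Neuron-like cells without a transmitter class were 0.676, 5.37, 9.24 and 10.7% of the AcCoc tags and 11.3, 11.9 and 11.2% of the Vehic tags. There the groups did not overlap (exact permutation test, p = 0.143), while in the other categories they did. Among 17 clusters compared by number, only cluster 6, part of that class, did not overlap. Cluster 6 was lower in every AcCoc tag, by −7.14 percentage points (exact permutation test, p = 0.0571, adjusted p = 0.971). In the AcMor tags it made up 1.81, 2.93 and 3.45%, also under the Vehic tags. Cluster 7, of whose cells 88.9% were called doublets, made up 28.97% of AcCoc 1 and 14.4% of Vehic 1 and at most 5.37% of the other AcCoc and Vehic tags.

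**Figure D5:**
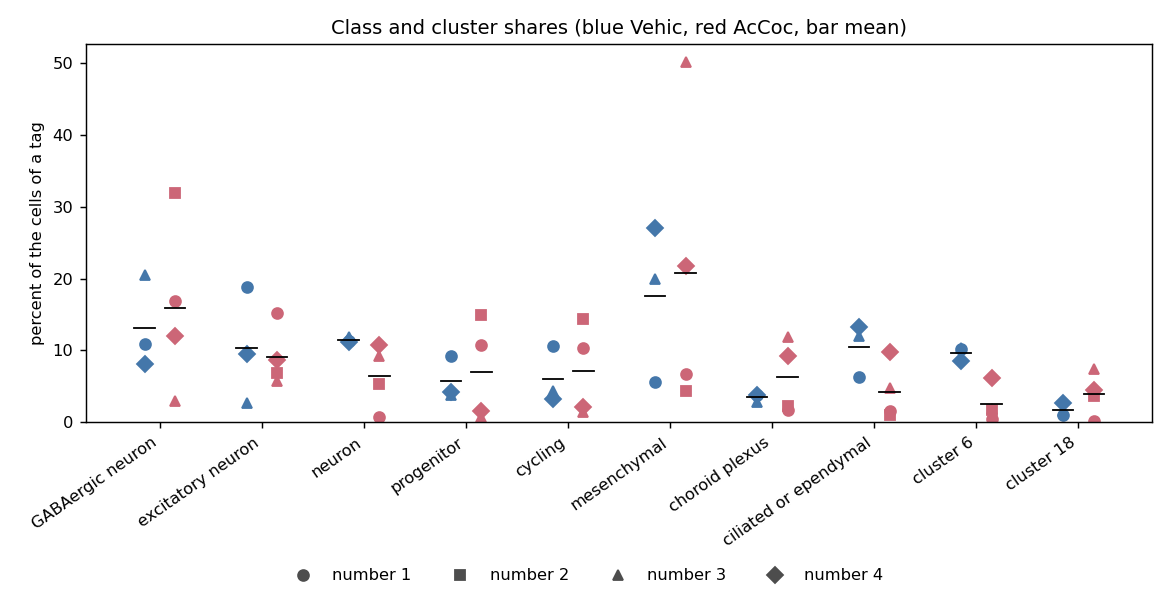
Share of cells (percent of the tag, vertical axis) in 10 cell classes or clusters per tag, Vehic in blue and AcCoc in red, with the tag number as marker shape and a black bar at the mean (n = 3 and n = 4). The mesenchymal share of AcCoc 3 (50.2%) stands above all others. The neuron class and cluster 6, which is part of it, are each lower in all AcCoc tags than in all Vehic tags.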

How the data were processed

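The authors deposited a matrix of expected counts (60286 genes, 43693 cells, 54.3% of the stored values whole) over 8 sublibraries; per the submitters' processing notes, Salmon 1.7.0 with alevin, Seurat 4.1.1 and hg38 were used. Filters, annotation and strand setting are not given in the sources used. Every AcCoc and Vehic fused-organoid cell held at least 1611 genes and at most 10.0% mitochondrial counts. The deposited expected counts were summed per tag over sublibraries and rounded.

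Members and gene lists were chosen with earlier results of these data known. Tests used edgeR 4.0.16 in R 4.3.3 (filterByExpr, TMM, robust quasi-likelihood, Benjamini-Hochberg adjusted p at most 0.05) on the 10 fused-organoid tags, which share 1 spread; CPM are TMM-scaled. DESeq2 1.42.0 and limma 3.58.1 served as alternatives. The rule for named genes took, as none passed, up to 10 genes per direction by lowest unadjusted p with a mean of at least 5 CPM (6 per direction in a class), up to 4 members of each list by lowest unadjusted p, and the transporters, receptors, FOS, FOSB, ARC, EGR1, NPAS4, CARTPT and PDYN in any case. JUN, NR4A1 and NR4A2 over all cells, COL1A1, FOXJ1, PPP1R1B, SLC7A11, VEGFA, EMX2, NEUROD6 and the genes called with the block were chosen after their values were seen. Tests were checked on simulated data. Results for some genes that the rule names are not reported here.

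The tag numbers come from the cell names. Deviations of same-numbered tags from their group means correlated at 0.138 to 0.566 over 9 pairs, and those of other numbers at −0.51 to 0.323, so that numbers 3 and 4 are not set apart from each other; the number was used as a block in an alternative fit.

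Classes came from Leiden clusters (leidenalg 0.10.2, resolution 0.8, 2000 variable genes, 30 components) of all cells, named where at least 3 markers and 40% of a list were detected. Doublets were called with simulated neighbours (scikit-learn 1.9.0; 14.8% of AcCoc and 14.5% of Vehic cells) and removed in an alternative. A class was tested where each AcCoc and Vehic tag held at least 20 cells, and the mesenchymal-like class in the 6 of these tags that did. Shares were compared by exact permutation (scipy 1.17.1). Sequences are from RefSeq (GRCh38.p14), gene positions from GENCODE v29 (GRCh38).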

Additional observations from a re-analysis of the deposited data

Results flagged for a closer look

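Among 62 groups of 4 AcCoc tags examined, 6 held a tag far from the other 3. Chance gives about 1 in 20 for independent, normally distributed values. Some clusters were counted both as a category and by number, so the count cannot be set against that rate. STX16 was at 55.2 CPM in AcCoc 2, against 36.5 to 38.2 CPM in the other AcCoc tags. AcCoc 1 stood apart in the share of intermediate progenitor-like cells (5.19%), of cluster 7, counted both as a category and among the clusters (28.97%), and of cluster 28 (3.83%). AcCoc 3 stood apart in the share of cluster 38, whose leading genes are those of cartilage matrix, such as ACAN and COL2A1 (9.85%).

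The effect of AcCoc on PAX2 in fused organoids differed from that in the 2-D co-culture by −3.92 on the log2 scale, in a test of the difference itself (edgeR, adjusted p = 0.0294). The call depended on the tags and the filter used, and the part of cell types in it was not tested (above).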

How the results depend on the processing

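The counts of called genes moved with the tool and the filter. By DESeq2 the AcCoc and Vehic tags gave 1 call over all cells (18 with the replicate block), AcCoc against AcMor 1, the contrast between culture forms 12, the neuron classes together 6 and progenitor with cycling cells 1. With no filter on low counts there were 15 calls in GABAergic, 16 in excitatory, 7 in all neuron-like and 63 in progenitor with cycling cells, and 0 between culture forms. By edgeR the replicate block gave 1 call in excitatory and 3 in all neuron-like cells and changed no other count of calls over all cells, against AcMor or within a class. Leaving out each tag gave 0 to 5 calls between culture forms and 0 to 2 in progenitor with cycling cells (2 without AcCoc 3).

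Of 31 named genes, 27 kept their direction in every alternative. Most of the 31 were chosen by lowest p in these same data, which largely fixes that. Those that turned, DRD1, DRD2, SLC6A2 and SLC6A4, were all among the genes named in any case. DRD2 turned to 0.0218 (DESeq2), 0.0041 (AcCoc and Vehic tags alone) and 0.0593 (each cell scaled to the same total), DRD1 to −0.0634 under that scaling, and SLC6A2 to 0.0205 with the block (0.0196 for numbers 1, 3 and 4 alone) and 0.17 without doublets. Leaving out tags, DRD1 ranged from −0.0673 to 0.43, DRD2 from −0.55 to 0.36, SLC6A2 from −1.09 to 0.70 and SLC6A4 from −1.11 to 0.0373.

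Differences in shares (percentage points) turned sign for excitatory neurons at a coarser clustering (1.33) and with the block for GABAergic neurons (−2.53), cycling (−1.42), progenitor (−1.39), both together (−2.81) and cluster 25 (1.26). Leaving out tags gave −2.53 to 7.14 for GABAergic, −5.05 to 3.04 for excitatory and −7.55 to 1.20 for all neurons, −6.60 to 8.66 for mesenchymal, −2.14 to 0.60 for intermediate progenitor, −1.42 to 3.31 for cycling, −1.39 to 3.32 for progenitor, −2.81 to 6.29 for both, −2.67 to 8.34 for cluster 7 and −3.55 to 1.86 for cluster 25. The cause was not tested for these. With 3 and 4 tags a group, and 22 to 152 cells in the thinnest tag of each class, small differences were not detectable.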

Other observations

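Of the genes below the filter, PDYN, the dynorphin precursor, which striatal D1-type neurons make, summed to 11.5 expected counts over the AcCoc tags and 7.83 over the Vehic tags. Of the 4 opioid receptor genes, 1 was above 0 and 3 below, with a median log2 fold change of −0.24. OPRM1, the mu receptor, was at 9.13, 10.8, 10.4 and 10.1 CPM in AcCoc and 12.4, 9.97 and 10.4 CPM in Vehic, with overlapping groups (log2 fold change −0.12 ± 0.21).

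Cortical excitatory fate genes were above 0 in 12 of 16 members with a median log2 fold change of 0.17, and with the number as a block 4 were higher at an unadjusted p under 0.05 (EMX2, FEZF2, NEUROD6 and EOMES), against 2.02% of genes. EMX2, a factor of the dorsal forebrain, was at 13.7, 10.1, 14.4 and 8.69 CPM in AcCoc and 13.1, 2.91 and 4.97 CPM in Vehic. Vehic 1 reached the AcCoc range and the other Vehic tags did not. NEUROD6 was at 75.8, 17.6, 12.1 and 14.3 CPM against 52.2, 3.46 and 5.45 CPM, with the tags numbered 1 the highest of both groups.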
